A study of Mus musculus with 14 samples.

Results

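Tnfrsf19, also called Troy or Taj, encodes a cell-surface receptor of the tumour necrosis factor (TNF) receptor superfamily. It was chosen by its measured RNA levels, a large fall in the MACF1 knockdown libraries and a strong rise with days. It is 1 of 24346 genes in the count table and 1 of the 13130 genes with enough reads to be tested. Since these same levels chose the gene, they are given as a description, with no test. The study sequenced polyadenylated RNA of MC3T3-E1 cells, a mouse calvarial pre-osteoblast line, in 14 libraries. Osteoblast differentiation was followed under 2 conditions: control cells, titled NC, and cells titled sh, whose genotype label is MACF1 knockdown. Each condition was sampled at days 0, 3 and 5 with 2 biological replicates and at day 10 with 1 library. The event that day 0 marks, the agent behind the knockdown and whether its cells are 1 clone are not given in the labels.

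TNF receptors bind trimeric ligands and pass the signal through TRAF adaptors to NF-κB and JNK, or through death domains to caspases. Tnfrsf19 is an unusual member: it lacks a death domain, has been described as a target of Wnt/β-catenin signalling, and in neurons can stand in for the p75 neurotrophin receptor Ngfr in the Nogo receptor complex. In stem cells it has been described beside the R-spondin receptor Lgr5, and in mesenchymal cells as a factor that favours bone over fat. MACF1 is a large protein that links microtubules with actin and has a described role in Wnt signalling.

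On GRCm38 the gene lies on the minus strand of chromosome 14, from 60963875 to 61046490, and its annotation holds 5 transcripts, 4 of them protein coding. The noncoding gene Gm41168 overlaps it on the other strand and was not analysed here. The libraries were directional, but the strand setting of the counting is not given in the sources used here. RefSeq lists 2 start sites, and the windows from 250 bases before to 50 bases after each are shown because Tnfrsf19 is described as a Wnt target and its profile lay near those of osteoblast genes. The upstream window lies at chr14:61046806-61047105 and the downstream window at chr14:61037938-61038237 (RefSeq, GRCm38.p6, minus strand, 5′ to 3′). Capitals mark the letters ATCAAAG, a core that TCF/LEF factors bind.
Tnfrsf19 upstream start: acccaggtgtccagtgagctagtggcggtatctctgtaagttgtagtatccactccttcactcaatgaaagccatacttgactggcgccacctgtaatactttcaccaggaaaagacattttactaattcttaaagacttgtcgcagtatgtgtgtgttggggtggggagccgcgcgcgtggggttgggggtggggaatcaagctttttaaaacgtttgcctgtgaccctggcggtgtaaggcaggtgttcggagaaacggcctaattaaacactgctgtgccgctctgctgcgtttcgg
Tnfrsf19 downstream start: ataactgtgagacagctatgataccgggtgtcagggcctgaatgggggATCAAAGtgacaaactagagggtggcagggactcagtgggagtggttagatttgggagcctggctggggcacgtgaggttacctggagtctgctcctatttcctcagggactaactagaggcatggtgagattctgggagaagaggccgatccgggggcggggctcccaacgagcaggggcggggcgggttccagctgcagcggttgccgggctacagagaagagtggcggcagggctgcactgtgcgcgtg
The upstream window is 51.0% G and C and holds neither ATCAAAG nor TGTGGTT, a core that RUNX factors bind, on either strand. The downstream window is 60.7% G and C and holds ATCAAAG once, beginning at position -202 from the start, and no TGTGGTT. The motifs were chosen after the sequences had been seen. Of 32851 such windows in the RefSeq table, 3.73% hold ATCAAAG or its reverse complement CTTTGAT and 5.27% hold TGTGGTT or AACCACA. A match of letters is not a site of binding, and the deposited counts do not tell the start sites apart.

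Library totals ran from 8044687 to 23301514 counts. The smallest, control day 3 replicate 2, stands apart: its pair differed with a chi-square per degree of freedom of 174.9, against 12.7 to 38.3 in the other pairs. The spread shared by all genes in the fit (edgeR's common dispersion) was 0.0474 with all libraries and 0.0115 without either library of that pair. It was 0.0544 to 0.0552 on leaving out any other replicate. Calls described below as lost without such a replicate were therefore judged against this wider spread. Macf1 itself ran from 55.2 CPM (counts scaled to the size of each library) in control day 3 replicate 2 to 204.6 CPM in the controls, and from 129.4 to 181.2 CPM in the libraries labelled knockdown. Its averaged log2 difference was 0.13 (SE 0.24, adjusted p = 0.724 by the quasi-likelihood test of edgeR, as for every adjusted p here), and -0.08 (adjusted p = 0.274) without that library, so the counts of the targeted gene do not check the label. All 15 osteoblast markers were tested: 10 rose and 0 fell between days 0 and 5 in controls (8.13% of all tested genes passed, 4.32% higher and 3.82% lower), with a median log2 change of 1.54 against 0.0 over all genes. In the knockdown-labelled libraries 9 rose and 0 fell (2.00% of all tested genes passed, 1.45% higher and 0.548% lower), with a median of 1.22. The 10 became 6 without either control day 0 library and 5 without control day 5 replicate 1, and the 9 became 5 without any knockdown-labelled library of days 0 and 5. Markers of other cells were low beside the osteoblast markers, which summed to 14865.2 to 32872.0 CPM in controls and 13570.0 to 25544.5 CPM in knockdown-labelled libraries. Summed levels were 3.82 to 11.2 CPM in controls and 7.10 to 13.4 CPM in knockdown-labelled libraries for blood cells, where Ptprc had 5 counts in all and Cd3e had 1. They were 0.771 to 2.51 and 1.202 to 3.49 CPM for endothelial cells and 4.03 to 24.2 and 5.36 to 14.1 CPM for neural cells. Epithelial markers summed to 0.707 to 7.76 CPM in controls and 9.87 to 51.7 CPM in knockdown-labelled libraries, nearly all Krt14 and Cdh1, with Esrp1 at 1 count in all. Muscle markers summed to 1.03 to 4.26 and 4.10 to 11.4 CPM, nearly all Des. Some of these markers differed between the conditions (26.9% of all genes passed in the averaged comparison). There Krt14 was higher by 3.70 (adjusted p = 2.92e-06), Cdh1 by 3.64 (adjusted p = 1.61e-05) and Des by 1.85 (adjusted p = 0.00143). Mbp was higher by 1.37 (adjusted p = 0.00238) and Lyz2 by 1.16 (adjusted p = 0.00303). No setting ended these calls, and no other tested marker of these cells passed. The epithelial sums were higher in every knockdown-labelled library and the muscle sums in most, where Tnfrsf19 was lower, and their part in its levels was not tested.

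In control cells Tnfrsf19 had 304 and 292 counts at day 0, or 19.2 and 20.3 CPM. At day 3 it had 4887 and 1827 counts, or 314.2 and 268.4 CPM. At day 5 it had 6767 and 4683 counts, or 377.8 and 364.8 CPM. Every day 3 and day 5 library therefore lay more than 10 times above both day 0 libraries. The single day 10 library had 3713 counts, or 190.3 CPM, below all 4 libraries of days 3 and 5. Control means were 19.8 ± 0.772, 291.3 ± 32.3 and 371.3 ± 9.19 CPM at days 0, 3 and 5 (SD, n = 2). The fitted log2 change from day 0 was 3.88 (SE 0.18) at day 3 and 4.23 (SE 0.18) at day 5, the latter an 18.8-fold difference and the 109th largest rise of 13130. From day 3 to day 5 the log2 change was 0.35 (SE 0.16), and from day 5 to day 10 it was -0.96 (SE 0.20), with 1 library at day 10.

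In the libraries labelled knockdown the gene was almost absent at day 0, with 9 and 8 counts. These are 0.489 CPM (0.224 to 0.928, exact 95% Poisson interval) and 0.557 CPM (0.240 to 1.10), and the intervals cover counting error only. At day 3 there were 625 and 405 counts, or 31.6 and 28.6 CPM. At day 5 there were 2291 and 1320 counts, or 96.4 and 88.6 CPM, and the day 10 library had 660 counts, or 38.3 CPM. As in controls the level was highest at day 5 and lower at day 10, but here day 10 lay above both day 3 libraries and in controls below them. Means were 0.523 ± 0.0479, 30.1 ± 2.10 and 92.5 ± 5.46 CPM at days 0, 3 and 5 (SD, n = 2). The fitted log2 change from day 0 to day 5 was 7.46 (SE 0.24), the third largest rise of all genes tested. It starts from fewer than 10 counts a library, so its size depends on how low values are handled: on log2(RPKM + 1) it was 4.11.

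**Figure D1:**
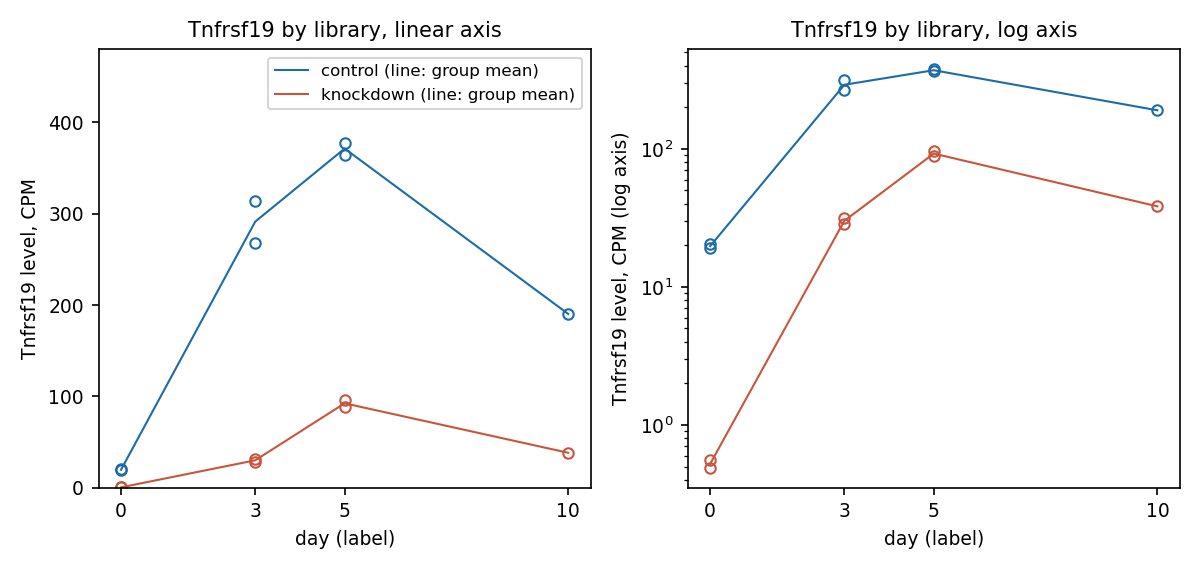
Tnfrsf19 in each library (circles, CPM) by labelled day, with lines through group means, on a linear axis at left and a log axis at right. Both conditions are highest at day 5, and every knockdown-labelled library lies below the controls of its day, from 0.489 against 19.2 CPM at day 0 to 88.6 and 96.4 against 364.8 and 377.8 CPM at day 5.

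Every knockdown-labelled library lay below every control library of its day, with no overlap. As a share of the control mean, the knockdown-labelled libraries held 2.47% and 2.82% at day 0 and 10.85% and 9.83% at day 3. They held 25.95% and 23.9% at day 5, and the day 10 library held 20.15%. In log2 the difference was -5.23 (SE 0.23) at day 0 and -3.27 (SE 0.18) at day 3. At day 5 the level was 4.01-fold lower (SE 0.17 on the log2 scale) and at day 10 the log2 difference was -2.31 (SE 0.24). Averaged over days 0, 3 and 5 it was -3.50 (SE 0.11), an 11.3-fold lower level and the 25th largest fall of 13130 genes. The ratio and the distance moved in opposite ways: the ratio came nearer to 1 from day 0 to day 5, while the distance between means grew from 19.2 CPM at day 0 to 261.2 CPM at day 3 and 278.8 CPM at day 5. The change from day 0 to day 5 was larger in the knockdown-labelled libraries by 3.22 on the log2 scale (SE 0.28). On log2(RPKM + 1) that difference was 0.20, so its size rests on the scale and on the 17 counts of the day 0 libraries together. The narrowing of the ratio between days 3 and 5 does not use those 17 counts. There the knockdown-labelled mean went from 10.3% to 24.9% of the control mean, with 405 to 2291 counts a knockdown-labelled library. In bulk RNA, fewer cells expressing a gene and less RNA per cell cannot be told apart.

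From lowest to highest, the group means ran knockdown-labelled day 0, control day 0, knockdown-labelled days 3, 10 and 5, then control days 10, 3 and 5. In CPM no neighbouring groups in this order overlapped, though each day 10 group is 1 library. In RPKM, which also scales counts to transcript length, the control day 3 pair spread from 41.7 to 61.2, and the control day 10 value of 36.2 was nearer to the lower of them than the pair were to each other. Transcript length is the same in both libraries, so this wider spread reflects how RPKM and CPM scale the libraries. The peak in controls, 72.4 and 72.1 RPKM at day 5, was above 94.9% and 94.8% of genes with any RPKM. At day 0 control values of 3.69 and 4.05 RPKM stood near the middle, above 48.5% and 49.6% of genes, and knockdown-labelled values of 0.10 and 0.11 stood above 14.3% and 13.4%.

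Within its own receptor family, Tnfrsf19 moved from a minor to a major member. By RPKM it ranked 7th of 26 family genes in control cells at day 0, with 1.23% of the family's summed RPKM, and 5th at day 5, with 13.0%. Ltbr, the lymphotoxin receptor, Tnfrsf1a, the main TNF receptor, and Tnfrsf12a, the TWEAK receptor, were above it in every library, except that Tnfrsf1a had 71.7 RPKM against 72.4 in control day 5 replicate 1. In the same group Tnfrsf11b, the secreted RANKL decoy osteoprotegerin, reached a mean of 137.9 RPKM. In knockdown-labelled libraries Tnfrsf19 ranked 17th at day 0, with 0.0343% of the sum, and 5th at day 5, with 5.82%.

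**Figure D2:**
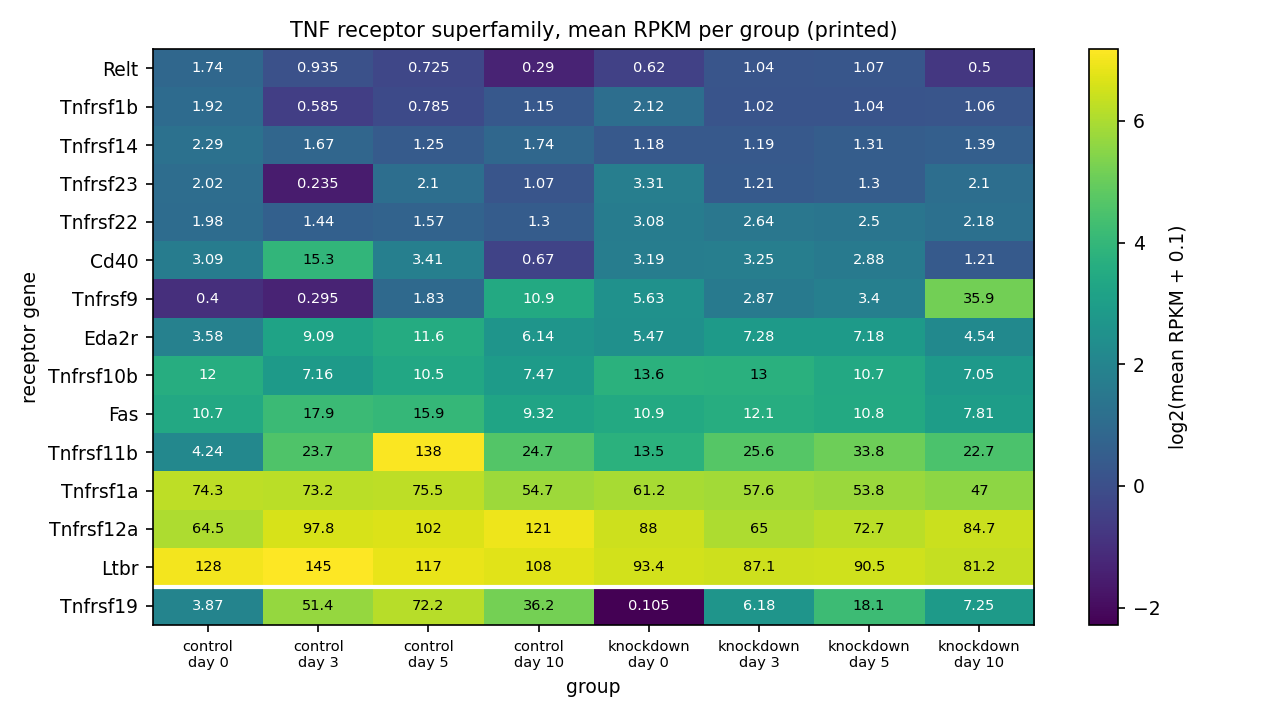
Mean RPKM per group of the TNF receptor genes averaging at least 1 CPM (rows; 8 groups in columns; colour is log2 of RPKM + 0.1, numbers are RPKM). Tnfrsf19, in the bottom row, goes from 3.87 to 72.3 RPKM between control days 0 and 5 and from 0.105 to 18.2 RPKM in the knockdown-labelled libraries, while Ltbr, Tnfrsf12a and Tnfrsf1a stay above 40 RPKM in all groups.

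Of the other 27 receptors listed, 25 were in the table and 15 were tested. In the averaged knockdown comparison 3 rose and 3 fell (26.9% of all genes passed, 15.0% higher and 11.9% lower), with a median log2 difference of -0.33 against -0.0032 over all genes. Tnfrsf9, the 4-1BB costimulatory receptor, rose by 2.55: controls ran from 0.588 to 5.47 CPM at days 0 to 5 and knockdown-labelled libraries from 6.93 to 15.0 CPM, without overlap (adjusted p = 8.15e-06). Tnfrsf22, a decoy receptor for TRAIL, rose by 0.64 (adjusted p = 0.0109), and Tnfrsf1a fell by 0.48 (adjusted p = 0.0132). Those 3 calls held on leaving out each replicate. The other 3 did not: Tnfrsf23, a related decoy receptor, rose by 0.68 (adjusted p = 0.0496), a call lost without any library other than control day 3 replicate 1, and was at -0.0018 without day 3. Ltbr fell by 0.63 (adjusted p = 0.0317), a call lost without control day 0 replicate 1, control day 5 replicate 1, or replicate 2 of the knockdown-labelled days 0, 3 or 5. Fas, the death receptor, fell by 0.46 (adjusted p = 0.0146), a call lost without control day 0 replicate 1 or knockdown-labelled day 3 replicate 2. The counts themselves were 5 and 6 without control day 3 replicate 1, 2 and 5 without control day 3 replicate 2, and 1 fall remained without control day 0 replicate 1 or knockdown-labelled day 3 replicate 2. Cd40 was at -0.97 (adjusted p = 0.472), and at 0.36 without control day 3 replicate 2, where it was far above the other libraries.

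Between control days 0 and 5, 3 of the 15 receptors rose and 2 fell (8.13% of all genes passed). Tnfrsf11b went from 13.4 and 12.2 CPM to 435.5 and 400.9 CPM, a log2 change of 5.03 (adjusted p = 0.00135) and larger than that of Tnfrsf19. Its level was 40.2 and 38.8 CPM at day 0 and 99.5 and 103.9 CPM at day 5 in the knockdown-labelled libraries, so at day 0 both stood above both controls, unlike those of Tnfrsf19. At day 5 both stood below both controls. The averaged Tnfrsf11b difference of -0.15 (adjusted p = 0.770) therefore joins opposite differences on days 0 and 5 and does not hold alike on each day. Its change from day 0 to day 5 differed between the conditions by -3.69 to -3.46 over the 7 other settings, though it did not pass in the main fit. Tnfrsf9 rose by 2.21 (adjusted p = 0.00249), and Eda2r, the ectodysplasin A2 receptor, by 1.70 (adjusted p = 0.00914). Relt and Tnfrsf1b, the second TNF receptor, fell by 1.24 and 1.28 (adjusted p = 0.0248 and 0.012). The calls for Eda2r, Relt and Tnfrsf1b were lost on leaving out any of the 4 control libraries of days 0 and 5. Without either control day 3 library 6 rose and 2 fell. In the knockdown-labelled libraries 0 of the 15 passed by edgeR (2.00% of all genes), 5 had an unadjusted p under 0.05, and DESeq2 called 2 falls. Without either control day 3 library 2 rose and 3 fell. For the difference between the 2 changes, 1 was higher, Relt at 2.06 (adjusted p = 0.0379), and 1 lower, Tnfrsf9 at -2.89 (adjusted p = 0.00804), against 1.36% of all genes (0.800% higher and 0.564% lower). The Relt call was lost on leaving out any library other than the control day 3 pair, and the Tnfrsf9 call without either control day 0 library, control day 5 replicate 1 or knockdown-labelled day 0 replicate 1. Without either control day 3 library 1 was higher and 4 lower. These comparisons share libraries with each other. Of 18 TNF family ligands 1 was tested, Tnfsf10 (TRAIL), which rose by 0.91 in the averaged comparison (adjusted p = 0.037), a call lost on leaving out any library other than the control day 3 pair. Edar, a close relative of Tnfrsf19, had 2 counts in all, and Eda had 2.

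Downstream of the receptors, 36 of 38 adaptor, NF-κB and JNK genes were tested, and 7 rose and 1 fell in the averaged comparison (26.9% of all genes passed), with a median of 0.12. Traf1, an NF-κB-inducible adaptor, had 0 to 4 counts in each control library and 35 to 65 in each knockdown-labelled one, a fitted log2 difference of 4.67 (adjusted p = 6.38e-05) that depends on the counts near 0. Map3k5, the kinase ASK1, rose by 1.15 (adjusted p = 0.00047), Nfkbie, an NF-κB inhibitor, by 0.65 (adjusted p = 0.00157), and Nfkbiz, a nuclear IκB, by 0.76 (adjusted p = 0.0208). Traf4 fell by 0.55 (adjusted p = 0.00927). The 1 fall became 3 without control day 3 replicate 1 and 4 without replicate 2, and the 7 rises became 18 without control day 3 replicate 1 and 4 without control day 0 replicate 1, control day 5 replicate 1 or replicate 2 of the knockdown-labelled days 0 or 5. The Nfkbiz call was lost without control day 0 replicate 1, either control day 5 library, knockdown-labelled day 0 replicate 2, day 3 replicate 1 or day 5 replicate 2. Between control days 0 and 5, Traf5 alone of the 36 passed, falling by 1.25 (adjusted p = 0.00315). Without either control day 3 library 5 rose and 3 fell.

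The Nogo receptor complex, through which Tnfrsf19 is known to act in neurons, was measured in part: 6 of 12 listed genes were tested. Its co-receptor Lingo1 had 0 to 5 counts in each library and Ngfr 0 to 13. Rtn4 (Nogo), a ligand present in most cells, had 406.1 to 1016.5 CPM and an averaged difference of 0.15 (adjusted p = 0.394). Rhoa, the GTPase at the end of the pathway, was at -0.01 (adjusted p = 0.976) and Arhgdia, its inhibitor, at 0.22 (adjusted p = 0.166). Rgma, a guidance ligand that was listed here but is not itself a part of the complex, rose by 0.50 (adjusted p = 0.00524). It was the only call of the 6 (26.9% of all genes passed). Without either control day 3 library 2 rose, and without control day 0 replicate 2 a fall was added. In controls Rtn4rl1, a Nogo receptor homologue, went from 2 and 0 counts at day 0 to 29 and 29 at day 5 (log2 change 4.72, adjusted p = 0.00423), and Rgma fell by 1.31 (adjusted p = 0.00153).

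Genes known as Wnt targets, the class to which Tnfrsf19 belongs, moved in both directions. Of 30 tested, 9 fell and 8 rose in the averaged comparison (26.9% of all genes passed, 11.9% lower and 15.0% higher), with a median of -0.17. Among the falls, Lef1, a TCF/LEF factor, fell by 1.88 (adjusted p = 5.68e-05), from 2.99 to 18.2 CPM in the control libraries of days 0 to 5 to 1.49 to 3.16 CPM in the knockdown-labelled ones. Rnf43, which removes Frizzled receptors, fell by 2.78 (adjusted p = 8.88e-05), Nkd2, an antagonist of Dishevelled, by 3.81 (adjusted p = 0.000713), and Tcf7 by 2.98 (adjusted p = 0.0211). Axin2, the usual reporter of the pathway, fell by 0.84 (adjusted p = 0.00808), a call lost with limma on log2(RPKM + 0.1) and on log2(RPKM + 1) (adjusted p up to 0.11). Falls were also called for Notum, Wisp1, Myc and Snai2, by 0.84 to 1.17. All 9 falls are thus named, but of the 8 rises only the 4 largest. How the calls for Notum, Wisp1, Myc and Snai2 held in other settings is not given here. Nkd2 had 0 counts and Rnf43 3 and 0 in the knockdown-labelled day 0 libraries, so their fitted sizes depend on the handling of zeros, and the Tcf7 call was lost without control day 0 replicate 2 or knockdown-labelled day 0 replicate 1. Among the rises, Vegfa was at 0.70 (adjusted p = 0.0322), Fosl1 at 0.66 (adjusted p = 0.000638), Ptgs2 at 0.64 (adjusted p = 0.0208) and Jun at 0.63 (adjusted p = 0.00266). The Vegfa call was lost on leaving out any library other than the control day 3 pair, and the Ptgs2 call without 6 of the 12: both control day 0 libraries, control day 5 replicate 2, and replicate 1 of knockdown-labelled days 0, 3 and 5. The 8 rises became 5 without replicate 1 of knockdown-labelled day 3 or day 5.

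Between control days 0 and 5, 8 Wnt targets rose and 4 fell (8.13% of all genes passed), with a median of 0.52. Lef1 rose by 2.26 (adjusted p = 0.00135) and Rnf43 by 3.85 (adjusted p = 0.000463). Axin2 went from 8.15 and 10.8 to 21.3 and 21.2 CPM, a log2 change of 1.16 (adjusted p = 0.049) that did not pass with a replicate block (1.15, adjusted p = 0.0587) or on leaving out any library other than the control day 3 pair. In the knockdown-labelled libraries 4 rose and 0 fell (2.00% of all genes passed), with a median of 0.60, among them Rnf43 (4.63, adjusted p = 0.00486) and Axin2 (2.00, adjusted p = 0.015). The Rnf43 call was lost with limma on log2(RPKM + 1) (adjusted p = 0.088), and the Axin2 call with limma on either RPKM scale (adjusted p up to 0.128) and without any of the 4 knockdown-labelled libraries of days 0 and 5. Like Tnfrsf19, Axin2 there went from 2.93 and 3.34 CPM at day 0 to 12.3 and 12.8 CPM at day 5, below controls on both days. Without either control day 3 library the counts were 14 and 8 in controls and 13 and 6 in the knockdown-labelled libraries, and DESeq2 gave 13 and 6, and 9 and 2. The 8 rises in controls became 5 without control day 0 replicate 1, and the 4 falls became 2 without control day 0 replicate 2 and 1 without either control day 5 library. The 4 rises in the knockdown-labelled libraries became 1 without any of their libraries of days 0 and 5.

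Of 16 tested receptors for Wnt and R-spondin and their partners, 6 fell and 1 rose in the averaged comparison (26.9% of all genes passed), with a median of -0.15. This list shares Rnf43, Znrf3, Lgr5 and Fzd7 with the Wnt targets, and the fall of Rnf43 is counted in both. Rspo2, an R-spondin that amplifies Wnt signals, fell by 0.66 (adjusted p = 0.00671), a call lost with limma on log2(RPKM + 0.1) (adjusted p = 0.0928). Fzd8 fell by 0.82 (adjusted p = 0.0283) and Fzd1 by 0.69 (adjusted p = 0.0212), while the Frizzled receptor Fzd6 rose by 1.08 (adjusted p = 0.00214). Without control day 3 replicate 1 or 2, 4 or 3 genes rose. The 6 falls became 3 without control day 0 replicate 2, either control day 5 library, either knockdown-labelled day 0 library or replicate 1 of knockdown-labelled days 3 or 5. The Fzd1 call was lost on leaving out any library other than the control day 3 pair, and the Fzd8 call without 7 of the 12. Those were control day 0 replicate 2, both control day 5 libraries, both knockdown-labelled day 0 libraries and replicate 1 of knockdown-labelled days 3 and 5. Lgr5, the stem-cell receptor described beside Tnfrsf19, had 0 to 5 counts in each library and was not tested. Its homologue Lgr4 was at 0.26 (adjusted p = 0.242) and Lgr6 at -0.37 (adjusted p = 0.509). Lgr6 rose in controls by 2.64 (adjusted p = 0.0255), a call lost on leaving out any control library of day 0 or day 5.

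Of 12 tested fat-cell factors, 1 rose and 1 fell in the averaged comparison, a share near the 26.9% of all genes that passed, with a median of -0.04. Cebpa, a driver of fat-cell identity, fell by 1.36 (adjusted p = 0.000284), from 4.55 to 9.94 CPM in the control libraries of days 0 to 5 to 1.67 to 4.50 CPM. Cebpb was at -0.31 (adjusted p = 0.173), and Pparg, the master regulator, had 0 to 14 counts in each library and was not tested. Klf4 rose by 0.68 (adjusted p = 0.00071), but its control level itself went from 26.9 and 21.4 CPM at day 0 to 127.1 and 122.5 CPM at day 5 (log2 change 2.37, adjusted p = 4.49e-05). Its change from day 0 to day 5 differed between the conditions by -2.90 (adjusted p = 0.000395), so the average does not hold alike on each day. The 1 fall became 3 without control day 3 replicate 1 and 2 without replicate 2.

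The genes around Tnfrsf19 were read from the same fit. Within 1000 kb on either side 51 other genes are annotated, 24 were in the table and 10 were tested. In the averaged comparison 2 fell and 0 rose (26.9% of all genes passed, 11.9% lower and 15.0% higher), a share near that of all genes, and without control day 3 replicate 1 or 2 the counts were 2 lower and 4 higher or 6 lower and 1 higher. Mipep, a mitochondrial peptidase 58.4 kb away, fell by 0.59 (adjusted p = 0.018), and Ebpl, 285.3 kb away, by 0.80 (adjusted p = 0.0247). Mipep's call was lost without control day 0 replicate 1, control day 5 replicate 2 or replicate 1 of knockdown-labelled days 0, 3 or 5, and Ebpl's without 8 of the 12 libraries: both control day 0 libraries, both control day 5 libraries, knockdown-labelled day 0 replicate 2, both knockdown-labelled day 3 libraries and day 5 replicate 1. Nupl1, Mtmr6, Spata13, Kpna3, Spryd7, Trim13 and Dleu2 lay between -0.19 and 0.51. Between control days 0 and 5, 0 of 10 passed by edgeR (8.13% of all genes), 2 had an unadjusted p under 0.05 and DESeq2 called 2 rises; without either control day 3 library 3 rose and 2 fell.

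**Figure D3:**
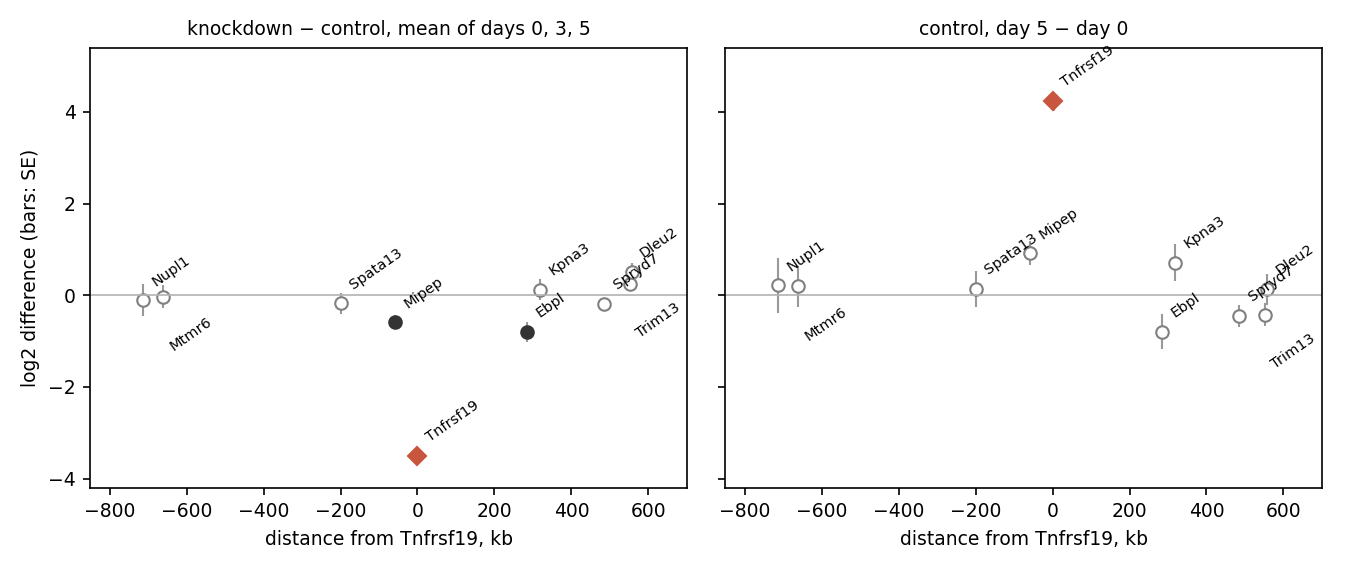
Log2 difference (bars, SE) of Tnfrsf19 (diamond) and the 9 named genes within 1000 kb by distance in kb; filled circles passed an adjusted p of 0.05. Tnfrsf19 stands at -3.50 and 4.23, and the 9 lie between -0.80 and 0.51 at left and between -0.80 and 0.91 at right.

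Osteoblast markers differed between the conditions in both directions. Of the 15, 6 were lower and 5 higher in the averaged comparison (26.9% of all genes passed, 11.9% lower and 15.0% higher), with a median of -0.28. Among the lower were Ibsp, or bone sialoprotein, at -3.57 (adjusted p = 1.21e-06), Alpl, the alkaline phosphatase of mineralising cells, at -2.66 (adjusted p = 6.78e-07), Pth1r, the parathyroid hormone receptor, at -2.50 (adjusted p = 7e-05) and the osteoblast factor Runx2 at -0.61 (adjusted p = 0.00208). Among the higher were Phex at 3.59 (adjusted p = 1.89e-06), Bglap, or osteocalcin, at 2.39 (adjusted p = 0.00873) and the matrix protein Dmp1 at 1.38 (adjusted p = 9.4e-05). The Bglap call was lost without knockdown-labelled day 0 replicate 1 and without day 3, and no setting ended the other 6 of these calls. The Dmp1 average does not hold alike on each day: its change from day 0 to day 5 differed between the conditions by -3.98 (adjusted p = 0.000522). Spp1, also among the higher at 0.60 (adjusted p = 0.012), differed in that change by -1.85 (adjusted p = 0.0314). For the difference between the changes from day 0 to day 5, 1 marker was higher, Alpl, and 2 were lower, Spp1 and Dmp1 (1.36% of all genes passed), and DESeq2 gave 0 higher and 3 lower. The counts were 2 higher and 5 lower without either control day 3 library, and on leaving out any other library of days 0 to 5 a single call, a lower one, was left.

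The genes whose profiles lay nearest to Tnfrsf19 included the markers Alpl, Pth1r and Ibsp. Likeness was the root mean square difference over the 14 libraries between centred log2(CPM + 0.5) profiles, for 9968 genes with a mean of at least 5 CPM. Tnfrsf19 itself varies by 2.71 about its own mean and the median gene lay 2.73 away, so a value near 2.7 is that of a flat profile. Alpl lay at 0.81 and Pth1r at 0.96, and no other gene was under 1. Mest (1.33), Sema6a (1.34), the CGRP co-receptor subunit Ramp1 (1.40), Ibsp (1.46), the deiminase Padi2 (1.48) and the channel Panx3 (1.51) followed. Alpl went from 2.84 and 2.57 CPM at control day 0 to 156.2 and 149.9 CPM at day 5, and from 0.217 and 0.209 to 45.3 and 41.2 CPM in the knockdown-labelled libraries. At day 10 it parted from Tnfrsf19: it had 35.6 CPM in the control and 41.5 CPM in the knockdown-labelled library. With Pearson's correlation in place of the distance, 2 of the 8, Alpl and Ibsp, were among the first 8, beside Klhdc10, Macrod2, Mertk, Col8a1, Wisp1 and Bcl7a. Leaving out control day 3 replicate 2 kept 7 and log2(RPKM + 0.5) kept 5. None of the 11 RefSeq windows listed for 6 of the 8 genes, Sema6a and Panx3 left out, held ATCAAAG or TGTGGTT on either strand.

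No gene mirrored Tnfrsf19 as closely. With the sign turned, the nearest were Igfbp6 and Ly6a (both 1.53), the quinone reductase Nqo1 (1.59) and the carbonyl reductase Cbr2 (1.65). Igfbp6, which binds insulin-like growth factors, had 134.4 and 140.7 CPM at control day 0 and 28.1 and 31.6 CPM at day 5. In the knockdown-labelled libraries it had 449.2 and 437.5 CPM at day 0 and 120.7 and 114.6 CPM at day 5, above controls on both days.

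**Figure D4:**
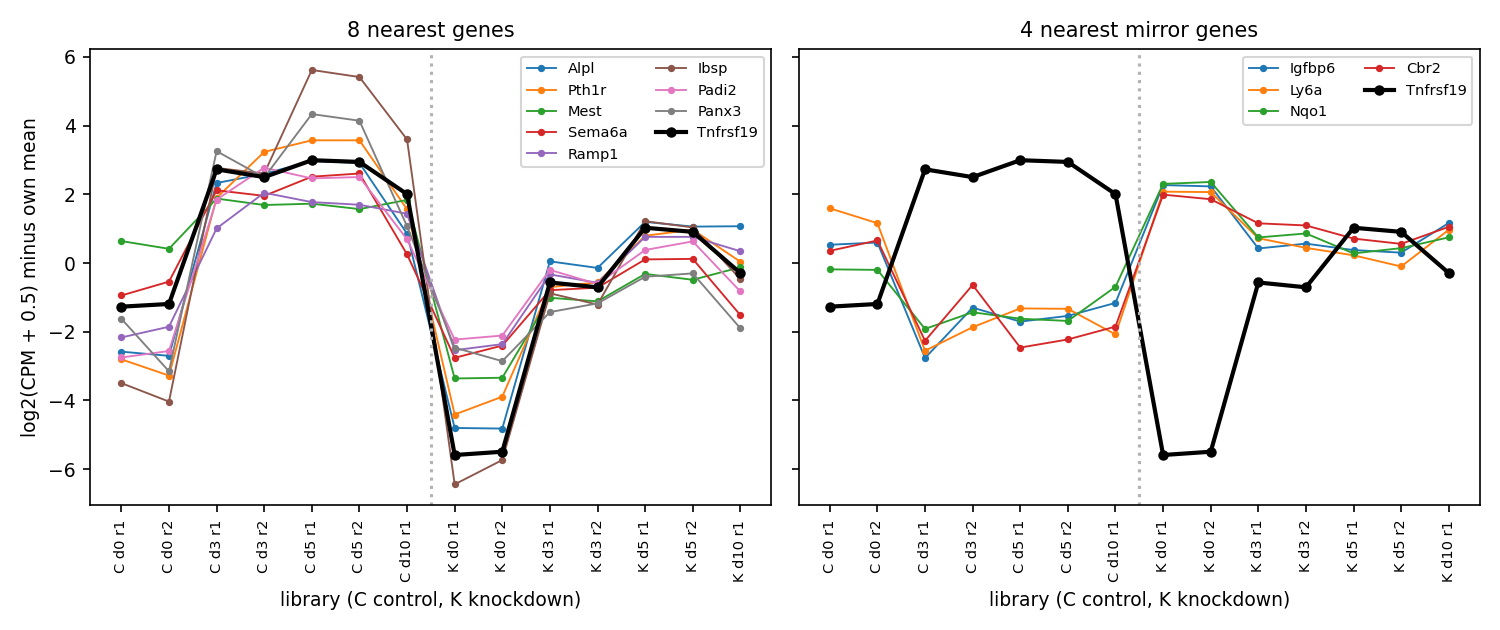
Centred log2(CPM + 0.5) of Tnfrsf19 (black) and its 8 nearest genes (left) and 4 nearest mirror genes (right) in the 14 libraries (C control, K knockdown-labelled, d day, r replicate; lines only join points of a gene). Alpl and Pth1r, at distances of 0.81 and 0.96, run closest to it, and the mirror genes vary less than Tnfrsf19 does.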

How the data were processed

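The authors deposited a table of read counts per gene and a table of RPKM, each with 14 library columns. Per the submitters' processing notes, bcl2fastq, TopHat2, edgeR and GRCm38 were used; what each did, and in which version, is not stated there. Counts were scaled by TMM and fitted with edgeR 4.0.16 in R 4.3.3 by its robust quasi-likelihood test, with 8 group means and 6 residual degrees of freedom. Genes needed 10 or more counts in 2 or more libraries. P-values had Benjamini-Hochberg adjustment over all 13130 at 0.05. The fit was tested on simulated data. Alternatives were DESeq2 1.42.0, limma 3.58.1 on log2(RPKM + 1) and log2(RPKM + 0.1), no scaling, no filter, a replicate block, no day 3, and each replicate left out. Same-numbered samples deviated together (correlations of 0.329, 0.158 and 0.326 at days 0, 3 and 5). Replicate 1 was also the larger library of each pair, so depth and pairing cannot be told apart here. The main fit did not pair same-numbered samples, and only the replicate block did. Named genes are receptors, ligands and Nogo genes of at least 1 CPM, the 4 largest called rises and falls of other lists, a few fixed genes, tested neighbours within 1000 kb, and the 8 nearest and 4 mirror profiles. Also named are some markers and the other called Wnt-target falls. The members and lists were chosen with earlier results of these data known. Protein sequences were not analysed here, and 1 tested neighbour is not reported here.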

Additional observations from a re-analysis of the deposited data

Results flagged for a closer look

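For 5 genes of the receptor, adaptor, Wnt and fat-cell lists and 4 genes of the marker lists, the change from day 0 to day 5 differed between the conditions by the test of that difference itself (edgeR's quasi-likelihood test, Benjamini-Hochberg adjustment). Klf4 (log2 difference of changes -2.90, adjusted p = 0.000395) and Tnfrsf9 (-2.89, adjusted p = 0.00804) rose in controls, while their changes in the knockdown-labelled libraries were -0.53 (adjusted p = 0.18) and -0.69 (adjusted p = 0.288). Cyr61, a matricellular protein (1.82, adjusted p = 0.00516), Relt (2.06, adjusted p = 0.0379) and Traf5 (1.31, adjusted p = 0.0461) fell in controls, while their changes in the knockdown-labelled libraries were 0.74 (adjusted p = 0.063), 0.82 (adjusted p = 0.245) and 0.06 (adjusted p = 0.967). The comparison holds 2 libraries a group. The Klf4 call was kept on leaving out each replicate. The Cyr61 call was lost without control day 5 replicate 2 or knockdown-labelled day 0 replicate 1. The Tnfrsf9 call was lost without either control day 0 library, control day 5 replicate 1 or knockdown-labelled day 0 replicate 1. The calls for Relt and Traf5 were lost on leaving out any library other than the control day 3 pair. Of the markers, Alpl (1.80, adjusted p = 0.0427) rose in both conditions, by 5.81 in controls and 7.61 in the knockdown-labelled libraries. The latter started from 4 and 3 counts at day 0, so the size of this difference depends on how low values are handled. Dmp1 (-3.98, adjusted p = 0.000522) and Spp1, or osteopontin (-1.85, adjusted p = 0.0314), rose in controls by 3.24 and 0.97, while their changes in the knockdown-labelled libraries were -0.74 (adjusted p = 0.195) and -0.87 (adjusted p = 0.13). Krt14, an epithelial keratin (-6.04, adjusted p = 0.000395), rose by 3.71 in controls and fell by 2.33 in the knockdown-labelled libraries. The calls for Dmp1 and Krt14 were kept in every setting, and those for Alpl and Spp1 were lost on leaving out any library other than the control day 3 pair. Both were also lost with limma on either RPKM scale. The Alpl call was lost with DESeq2 and without the low-count filter as well, and the Spp1 call without scaling beyond library size.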

How the results depend on the processing

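The averaged Tnfrsf19 difference of -3.50 was -3.09 on log2(RPKM + 0.1), -2.31 on log2(RPKM + 1) and -3.62 without day 3. The control rise of 4.23 was 3.91 on log2(RPKM + 1). The knockdown-labelled rise of 7.46 was 6.48 and 4.11 on log2(RPKM + 0.1) and log2(RPKM + 1), and the difference of changes of 3.22 was 2.29 and 0.20. Leaving out each replicate in turn gave -3.54 to -3.46, 4.19 to 4.27, 7.36 to 7.54 and 3.13 to 3.31 for these 4 values. The 3 receptors that fell were 1 with either RPKM scale and 1 to 6 over the left-out replicates, and the 3 that rose were 2 to 5. The 9 Wnt targets that fell were 15 without day 3 and 8 to 13 over the left-out replicates, and the 8 that rose were 5 to 9. Tnfrsf23 turned to -0.0018 without day 3. The next tally leaves out the markers and Notum, Wisp1, Myc and Snai2. Of 58 calls for the other named genes, 26 held in every setting, 29 were lost with some replicate left out and 3 only in other settings (Axin2 and Rspo2 averaged, Rnf43 in the knockdown-labelled rise). Of the averaged calls among these 58, Ltbr, Fas, Tnfrsf23, Tnfsf10, Nfkbiz, Axin2, Vegfa, Fzd8, Fzd1, Rspo2, Mipep and Ebpl were lost with limma on at least 1 RPKM scale. The replicate block ended 1 of the 58, Axin2 between control days 0 and 5 (1.15, adjusted p = 0.0587), and no other of them. Over all genes, 3530 calls became 7593 and 6165 without control day 3 replicate 1 or 2 and 5366 without day 3. Without scaling beyond library size, 2209 genes were higher and 1135 lower, against 1968 and 1562, and on log2(RPKM + 0.1) 2036 and 970. Counts under about 10, as for Tnfrsf19 at day 0 in the knockdown-labelled libraries, limit the precision of a ratio.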

Other observations

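Cd40, a TNF receptor of antigen-presenting cells, followed the replicate number more than the condition. In the replicate 1 libraries of days 0, 3 and 5 it had 2.15 to 3.91 CPM, and in the replicate 2 libraries 16.2 to 17.8 CPM, apart from 118.6 CPM in control day 3 replicate 2. The single day 10 libraries had 2.204 and 4.01 CPM. The pattern was noticed after the values were seen, and its cause was not tested.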
